A study of Mus musculus with 14 samples.

Results

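The genes described here encode the translation initiation factors (Eif genes) and translation elongation factors (Eef genes) of the mouse. They were found by name: protein-coding genes whose symbol starts with Eif or Eef and a digit, without the eIF2 kinases (Eif2ak genes) and the eIF4E-binding proteins (Eif4ebp genes). The table held 58 such genes among 24556, and 55 of them reached an unlogged value of 10 in at least 3 libraries, as did 11886 genes of the whole table. The 3 genes under that minimum were Eef1akmt2, a methyltransferase of eEF1A with a median log2 value of 2.82, and Eif5a2 and Eif4e1b, with medians of 1.40 and -1.40.

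RNA was sequenced from F4/80+ cells, the bead-isolated macrophage fraction, of tumours grown from 4T1 cells in the fat pad of Balb/c mice. 4T1 is a mouse mammary carcinoma line, and the tumour cells, not the mice, had been exposed to an agent before injection. The DMSO groups (3 libraries on day 8, 4 on day 14) came from tumours of cells cultured with the vehicle, and the GSK groups (3 libraries on day 8, 4 on day 14) from tumours of cells kept for 5 days in 5 µM GSK269962A, a small-molecule inhibitor. The labels give no age of the mice and do not tie libraries to mice, so p-values reflect only how much these libraries vary, which may be technical. Values are on the authors' log2 scale. No counts were used here, so depth is unknown and intervals for counting error are not given.

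Translation of most messenger RNAs starts when eIF4E, the cap-binding protein, with the scaffold eIF4G and the helicase eIF4A brings the message to the small ribosomal subunit. That subunit carries eIF3, a large complex that organises the start, and eIF2, which delivers the initiator tRNA. Once the large subunit has joined, eEF1A brings each aminoacyl-tRNA to the ribosome and eEF2 moves the ribosome along the message. In macrophages, activation is known to be accompanied by regulated translation of stored and new messages.

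The fractions carried the macrophage transcripts their label names: all 12 pan-macrophage markers (among them Adgre1, which encodes F4/80, and Csf1r) passed the minimum, and their mean log2 value lay between 11.5 in the DMSO day 8 group and 12.1 in the GSK day 14 group. On day 14, 4 of these 12 markers were higher and 2 lower in GSK than in DMSO tumours at an adjusted p under 0.05 (limma). That is 50%, beside 10.8% of all genes tested, with changes from -0.85 to 1.04. Transcripts of other cells were present too. Of 12 markers of 4T1 epithelium 10 passed the minimum, and their mean was 5.89 in DMSO and 6.40 in GSK tumours on day 8, against 5.17 and 4.86 on day 14. Defining markers of T and NK cells passed for 2 of 9 genes, of B and plasma cells for 2 of 6, of fibroblasts for 4 of 7, of neutrophils for 5 of 8 and of endothelium for 6 of 6. The 4 GSK day 14 libraries lay at 28.6 to 43.1 on the first principal component, apart from the other 10 at -37.9 to 12.01. In such isolated fractions, fewer cells of a type and less RNA per cell cannot be told apart. Libraries also differed in which of the overlapping ribosomal RNA genes AY036118 and Gm42418 held the reads: AY036118 was the higher in 1 of 3 DMSO and 2 of 3 GSK libraries on day 8, and in 2 of 4 DMSO and 4 of 4 GSK libraries on day 14.

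The mean log2 value over the 55 genes lay between 8.89 and 9.08 in the 14 libraries, and the DMSO day 14 libraries (8.92 to 9.02) overlapped with the GSK day 14 libraries (9.01 to 9.08) through GSK library 2, the lowest of its group. No test of this mean was made. Levels per kilobase were compared by subtracting the log2 length in kilobases of the longest coding transcript, on the assumption that the deposited values had not been corrected for length, which the sources used here do not state. Eef1a1, the gene of the main eEF1A form, had the highest mean level per kilobase (12.23), followed by Eif3k (11.65), Eef2 (11.63) and Eif1 (11.42). Eif5a, whose product helps the ribosome through difficult peptide bonds, came next at 10.88.

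Partners in one complex stood far apart. The subunits of eIF2 had levels per kilobase of 10.63 for Eif2s2 (beta), 5.23 for Eif2s1 (alpha, the subunit that stress kinases phosphorylate) and 4.74 for Eif2s3x (gamma). Of the eIF4G family, Eif4g2, which lacks the eIF4E-binding part, was at 8.73 against 5.65 for Eif4g1 and 4.90 for Eif4g3. The eIF3 subunits ran from 11.65 for Eif3k down to 3.41 for Eif3j1. Reads of Eif3j1 may have been split in the counting. Of its 31-base sequences 38.4% recur in transcripts from elsewhere, with Eif3j2 (level 7.28) as the top match. Outside this pair the lowest eIF3 level was 7.70, for Eif3l. The limit also applies to eIF2, where such repeats made up 35.3% for Eif2s3x, 12.4% for Eif2s2 and 10.5% for Eif2s1. In Eif4g1, Eif4g2 and Eif4g3 they made up at most 2.06%. The low end held Eef2k (2.76), the kinase that inhibits eEF2, and Eef1e1 (2.06). Neighbours in the order could change places: Eif3k was above Eef2 in the DMSO day 14 group and below it in the GSK day 14 group.

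**Figure D1:**
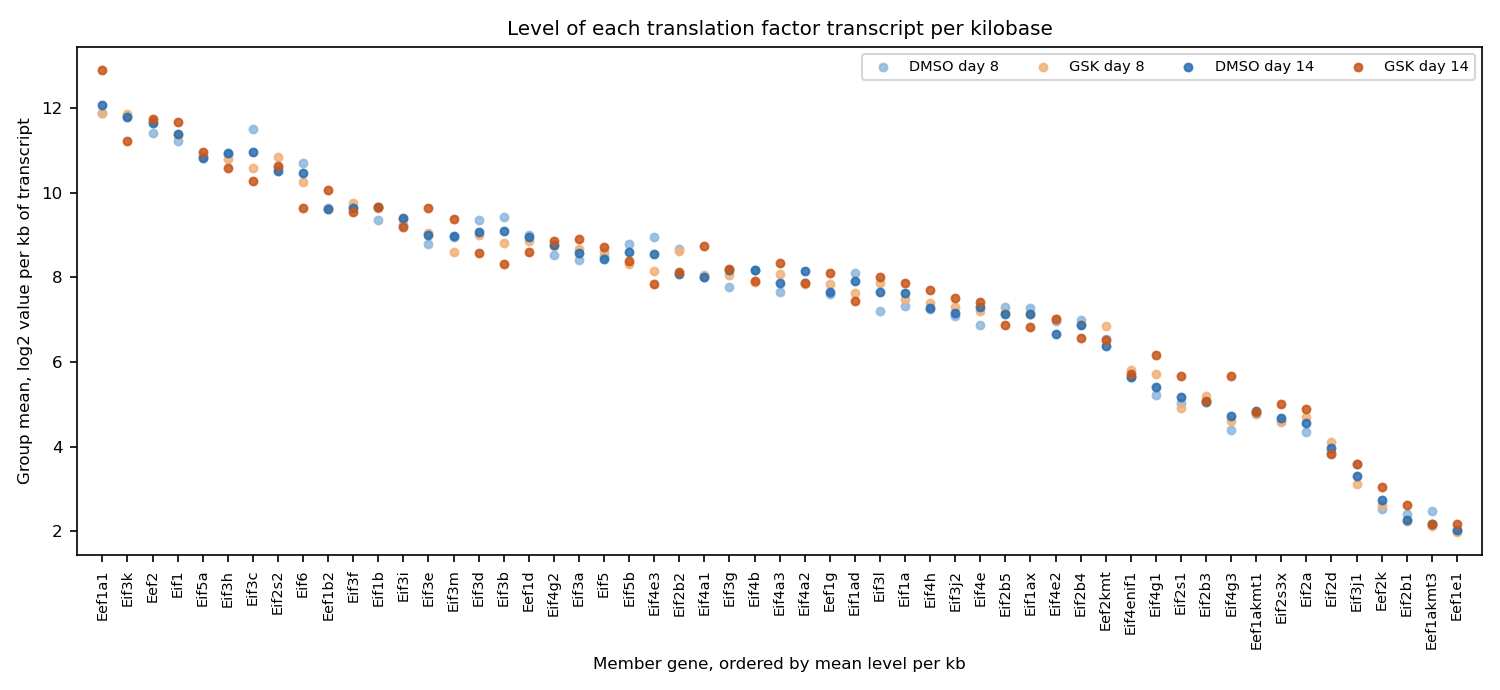
Mean log2 level per kilobase of transcript (vertical axis) of the 55 translation factor genes, ordered by their mean over the libraries, with 1 point for each of the 4 groups. Eef1a1 stood at the top (12.23) and Eef1e1 at the bottom (2.06), and the GSK day 14 points left the other 3 groups upwards for Eif4g3 and Eef1a1 and downwards for Eif6 and Eif3k.

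The main comparison asked how macrophages of GSK tumours differed from those of DMSO tumours on day 14. On that day 5 factors were higher and 5 lower in GSK tumours at an adjusted p under 0.05, so 10 of the 55 passed (18.2%), beside 10.8% of all genes tested (5.1% higher and 5.73% lower). The higher ones were Eif4g3, Eif4g1 and Eif4a1, which encode the scaffold and helicase of the cap-binding complex, and Eef1a1 and Eef1b2 of the elongation step. The lower ones were Eif3b, Eif3c and Eif3k of eIF3, the eIF4E homologue Eif4e3, and Eif6, whose product keeps the ribosomal subunits apart. The median change over the 55 was 0.11, against 0.018 over all genes tested, and 35 of the 55 had a positive sign. An unadjusted p under 0.05 was found for 23 of the 55, beside 27.3% of all genes tested, and the groups did not overlap for 20 of the 55 (36.4%), beside 22% of all genes tested.

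**Figure D2:**
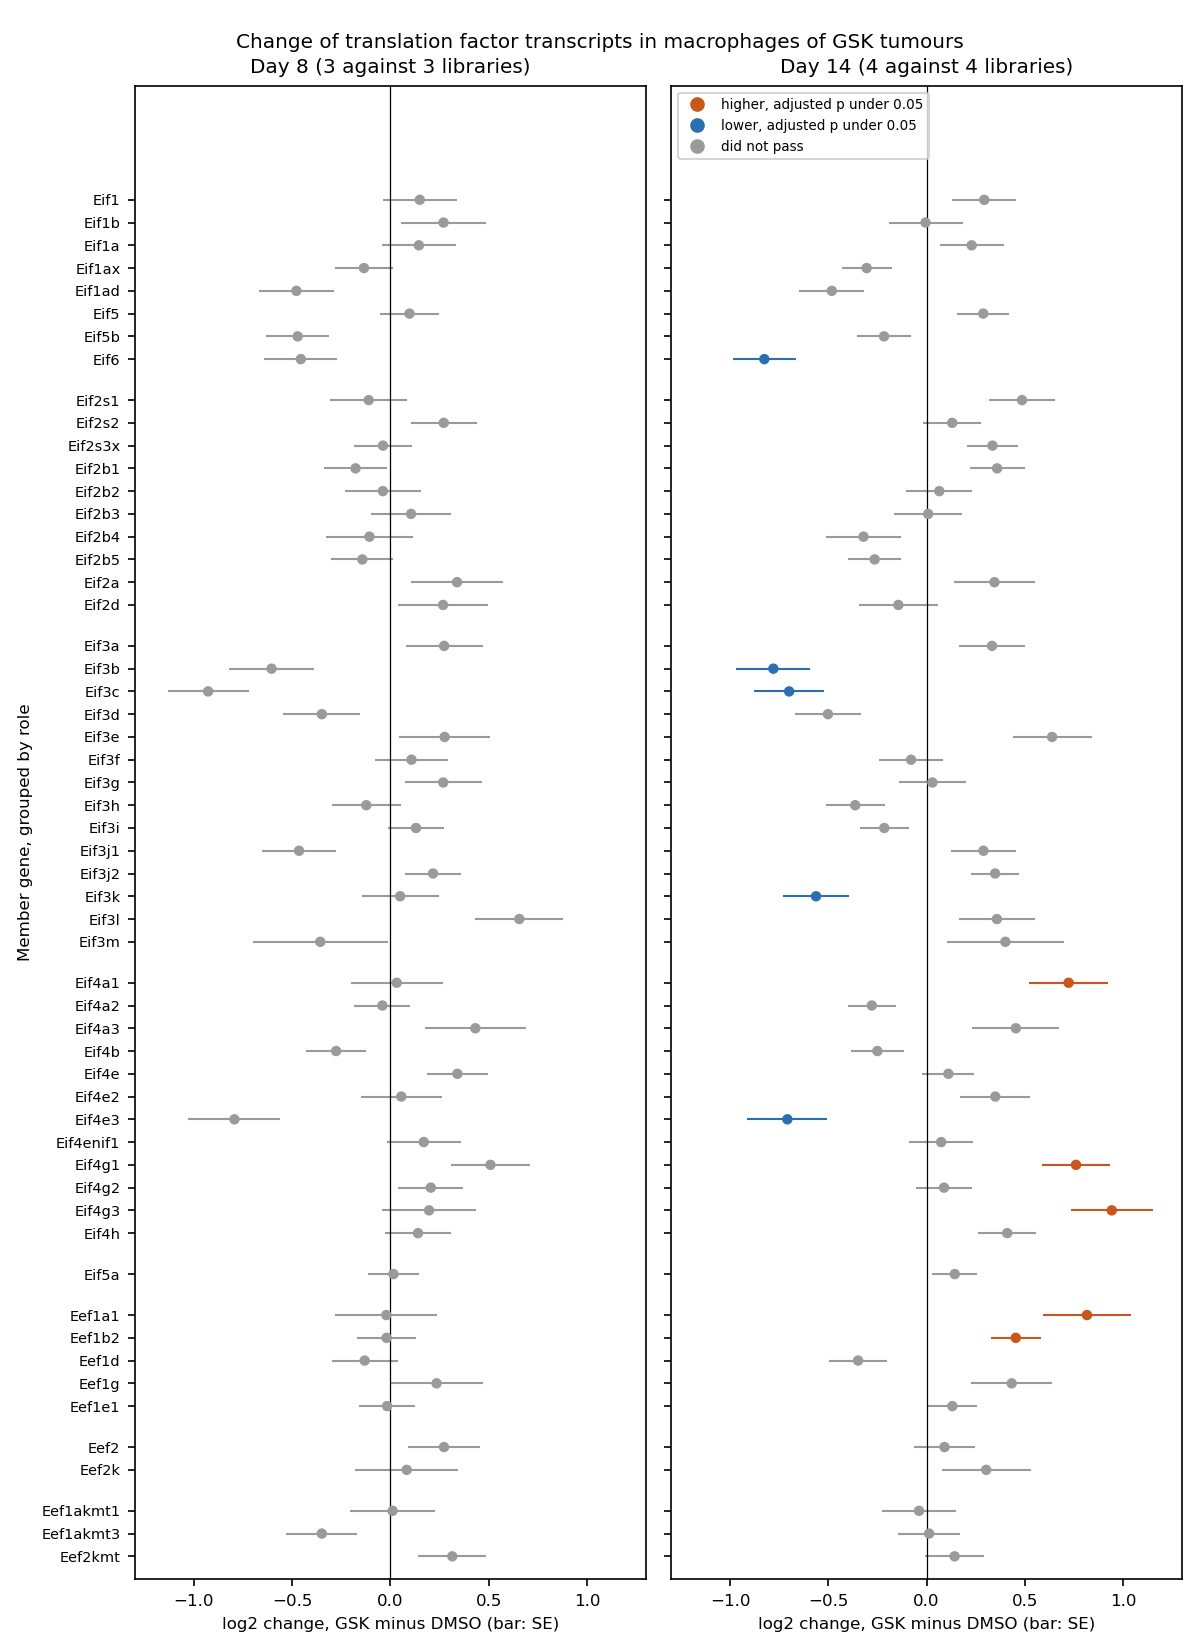
Log2 change between GSK and DMSO tumours (horizontal axis; bars are the standard error of the limma fit) for the 55 factors, ordered by role, on day 8 (left) and day 14 (right). The 5 higher factors on day 14 lie among the eIF4 and eEF1 genes, the 5 lower ones are Eif6, 3 eIF3 subunits and Eif4e3, and no point passed on day 8.

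Among the genes with Eif4 symbols, 3 of 12 rose and 1 fell on day 14, beside 5.1% and 5.73% of all genes tested. Their median change was 0.23 against 0.018 over all genes. Eif4g3 (chr4:137993022-138208508, plus strand, GRCm38) encodes a second scaffold of the cap-binding complex. Its 4 DMSO day 14 libraries held log2 values of 8.04, 7.68, 7.85 and 7.44, and the GSK libraries 8.79, 8.28, 8.62 and 9.08. All GSK libraries lay above all DMSO libraries, with library 4 the highest, and the rise was 0.94 ± 0.21 on the log2 scale (SE), or 1.92-fold (adjusted p = 0.0138).

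Eif4g1 (chr16:20668313-20692884, plus strand) encodes the main scaffold, which binds eIF4E, eIF4A and eIF3. It had values of 7.62, 7.95, 8.13 and 7.89 in DMSO and of 8.35, 8.48, 8.76 and 9.04 in GSK tumours. The groups did not overlap, and Eif4g1 rose by 0.76 ± 0.17, or 1.69-fold (adjusted p = 0.0152). Eif4a1 (chr11:69666936-69672423, minus strand), the helicase that unwinds the leader of the message, was at 8.43, 8.99, 8.76 and 9.20 in DMSO and at 9.49, 9.35, 9.61 and 9.82 in GSK tumours. It rose by 0.72 ± 0.20, or 1.65-fold (adjusted p = 0.0343), again with no overlap. Eif4a1 shares 31.1% of its 31-base words with other annotated genes, so the authors' counting could split its reads, and its near relative Eif4a2 went from a mean of 9.58 to 9.30 and did not pass.

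Without GSK day 14 library 4 the adjusted p became 0.0681 for Eif4g3, 0.0735 for Eif4g1 and 0.130 for Eif4a1. Eif4e, the cap-binding protein itself, differed by 0.11 (adjusted p = 0.640), so the scaffold and helicase transcripts passed the test while the transcript of their cap-binding partner did not. Whether these changes differ from that of Eif4e was not tested.

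Eif4e3 (chr6:99625135-99666771, minus strand) encodes a cap-binding relative of eIF4E. In DMSO tumours its values were 10.06, 10.20, 9.16 and 10.09, and in GSK tumours 9.30, 9.13, 9.26 and 9.001. DMSO library 3 lay within the GSK range, so the groups overlapped, and the fall was by 0.71 ± 0.20, or 1.63-fold (adjusted p = 0.0370). Eif4e3 shares 13.9% of its words with other genes, and Gm20696, a protein-coding gene that runs across it on the same strand, went from a mean of 6.13 to 5.23 (a change of -0.90, adjusted p = 0.00588). The unlogged values of both together differed by -0.72 on the log2 scale (two-sided exact permutation p = 0.0857, 4 against 4 libraries).

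The promoters of the factors are shown here because genes of one complex differed in direction. RefSeq promoters (GRCm38.p6, 250 bases before to 50 after each RefSeq start) were available for 42 of the 55 genes. A gene can have more than 1 such start. These promoters were searched on both strands for the E-box CACGTG, the ETS site CCGGAAGT and the cyclic AMP response element TGACGTCA. The first and the last share the letters ACGT and can overlap. The E-box was in at least 1 promoter of 11 of the 42 genes (26.2%) and of 8.09% of 27025 genes with a RefSeq promoter. All 42 had passed the minimum, while the 27025 genes were not limited to those that did. The share among genes that passed the minimum was not computed, so an excess particular to the factors cannot be read from these shares. The ETS site was in 7 of 42 (16.7%, against 4.31%) and the response element in 1 of 42 (Eef2, against 2.03% of genes). Windows of 20 bases on either side of the E-box, in capitals, follow for the members with an E-box that rose or fell on day 14 and for Eif4e, which did not pass.
Eif4g1: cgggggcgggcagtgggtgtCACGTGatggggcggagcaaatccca
Eif4a1: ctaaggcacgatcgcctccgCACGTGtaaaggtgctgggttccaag
Eif3k: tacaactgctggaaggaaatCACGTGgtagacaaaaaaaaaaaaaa
Eif4e: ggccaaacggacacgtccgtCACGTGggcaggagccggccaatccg
These windows lie at chr16:20672653-20672698 (plus strand, Eif4g1), chr11:69672587-69672632 (minus, Eif4a1), chr7:28981907-28981952 (minus, Eif3k) and chr3:138527184-138527229 (plus, Eif4e), and they were chosen after the values were seen. Eif4g1 and Eif4e each hold a second E-box in the searched bases. Their windows lie inside the gene spans used here (chr16:20668313-20692884 and chr3:138526179-138559696), downstream of the first base. The RefSeq starts searched for these genes thus differ from the outermost annotated start. The E-box was thus in the promoters of 2 genes that rose, Eif4g1 and Eif4a1, of Eif3k, which fell, and of 8 genes that did not pass on day 14. The ETS site was in the promoter of Eef1b2, which rose. Such a match describes letters only.

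The genes with Eef1 symbols, without the methyltransferases, had 2 of 5 higher on day 14, beside 5.1% of all genes tested, and none lower. Among them is Eef1e1, near the minimum (log2 of 3.32) with day 14 means of 3.39 in DMSO and 3.53 in GSK tumours. The median change of the 5 genes was 0.43, against 0.018 over all genes. Eef1a1 (chr9:78478449-78489151, minus strand) had values of 12.64, 12.69, 13.30 and 13.06 in DMSO and 13.70, 13.49, 13.71 and 14.05 in GSK tumours. No DMSO library reached the lowest GSK library, and Eef1a1 rose by 0.82 ± 0.22, or 1.76-fold (adjusted p = 0.0322). Without GSK library 4 its adjusted p was 0.126.

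Inside the last part of Eef1a1 lies Gm26377, annotated as a miRNA gene on the same strand, and Eef1a1 shares 49.8% of its words with other genes. Gm26377 was at 8.38, 5.97, 11.15 and 8.33 in the DMSO day 14 libraries and at 12.40, 12.19, 12.22 and 12.63 in the GSK day 14 libraries. It rose by 3.90 (adjusted p = 0.0297), and on day 8 it spread from 5.39 to 11.05 within the GSK group. How the authors' counting shared reads between both genes was not tested. The unlogged values of Eef1a1 and Gm26377 together differed by 1.18 on the log2 scale on day 14 (two-sided exact permutation p = 0.0286, the smallest that 4 against 4 libraries allow), and by 0.16 on day 8 (exact permutation p = 0.900, where 3 against 3 cannot go below 0.1). The sum was chosen after the values were seen. On day 14 the groups did not overlap for either gene alone, so the sum could not overlap either. Its day 14 p was thus fixed in advance and adds no support.

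Eef1b2 (chr1:63176825-63180486, plus strand), a subunit of the exchange factor that recharges eEF1A with GTP, had 10.71, 10.36, 10.72 and 10.50 in DMSO and 11.03, 10.78, 11.05 and 11.24 in GSK tumours. The lowest GSK value lay just above the highest DMSO value, and the rise was 0.45 ± 0.13, or 1.37-fold (adjusted p = 0.0353; 0.138 without GSK library 4). Eef1b2 shares 13.1% of its words with other genes and overlaps Ndufs1 on the opposite strand, so its reads too could be split in the counting. On day 14 Ndufs1 was at a mean of 8.38 in DMSO and 8.31 in GSK tumours (a change of -0.067, adjusted p = 0.835). Gm43712, the top match of its words, was under the minimum at 2.43 and 2.62. Such a split was not tested. The other subunits of the exchange factor did not pass: Eef1g differed by 0.43 and Eef1d by -0.35, and for Eef1d the libraries did not overlap. Eef2, which moves the ribosome along, differed by 0.091 and its kinase Eef2k by 0.30, neither of which passed.

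**Figure D3:**
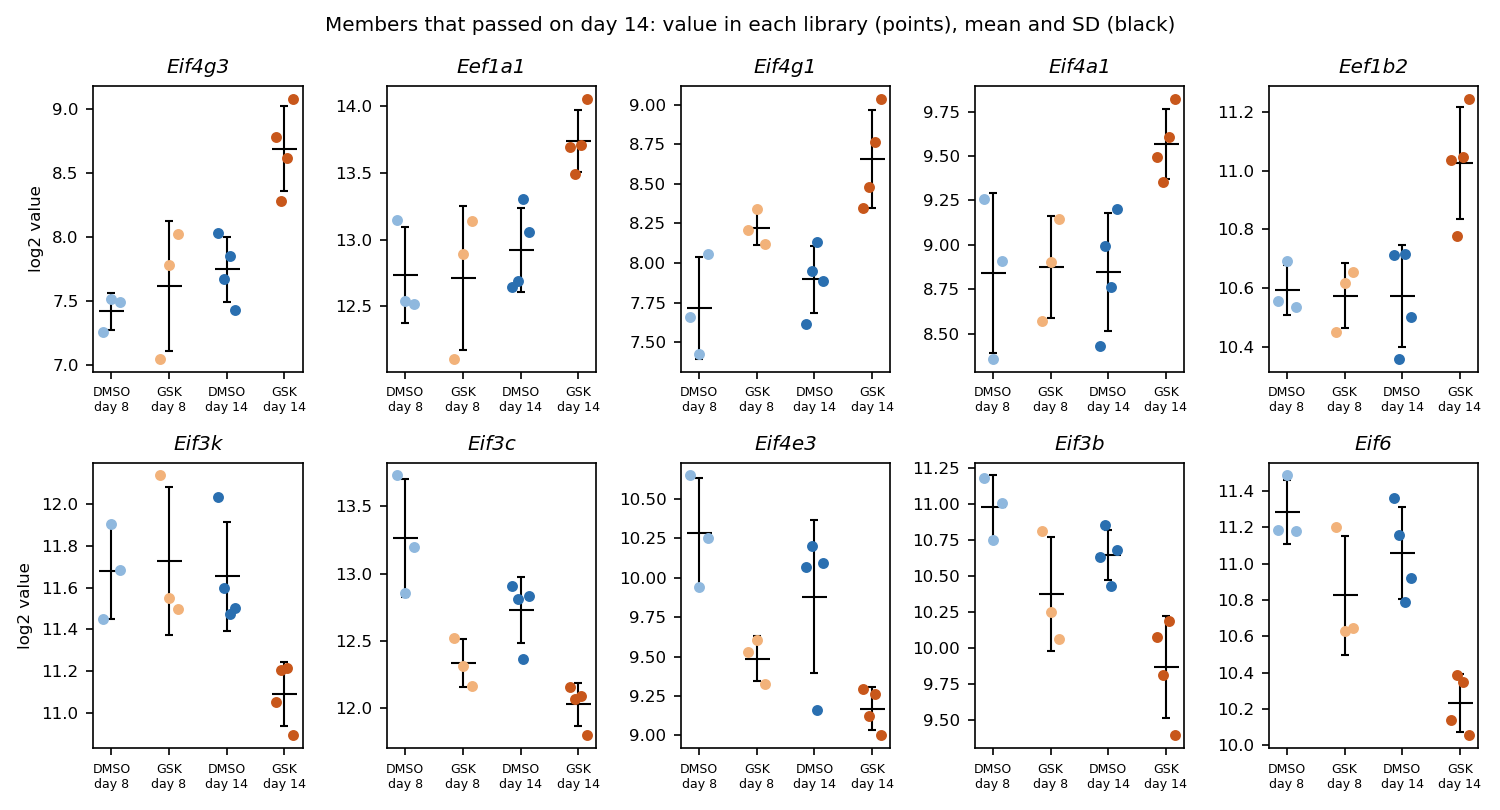
Log2 values in each library (points), with the mean and SD (black), for the 10 factors that passed on day 14, by group. In the upper row the GSK day 14 libraries are the highest; in the lower row they are the lowest, except that DMSO day 14 library 3 (9.16) lies among them for Eif4e3 and GSK day 8 library 3 (10.06) for Eif3b.

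Within eIF3, no subunit rose and 3 of 14 fell on day 14, beside 5.73% of all genes tested, while the median change was -0.025. Eif3b (chr5:140419328-140443360, plus strand) encodes a core subunit to which the small subunits bind. Its values were 10.63, 10.85, 10.43 and 10.68 in DMSO and 10.07, 9.82, 10.19 and 9.39 in GSK tumours. The groups did not overlap, and Eif3b fell by 0.78 ± 0.19 on the log2 scale, or 1.72-fold (adjusted p = 0.0195).

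Eif3c (chr7:126546455-126566411, minus strand), part of the eIF3 core that binds eIF1 and eIF5, had values of 12.91, 12.81, 12.37 and 12.83 in DMSO and 12.16, 12.07, 12.09 and 11.80 in GSK tumours. With no overlap, it fell by 0.70 ± 0.18, or 1.62-fold (adjusted p = 0.0245). Eif3c shares 10.49% of its words with other genes. Eif3k (chr7:28971372-28981864, minus strand), a small peripheral subunit, was at 12.03, 11.60, 11.48 and 11.50 against 11.05, 11.20, 11.22 and 10.89. It fell by 0.56 ± 0.17, or 1.48-fold (adjusted p = 0.0440), and all 4 GSK libraries were below the lowest DMSO library. Without GSK library 4 the adjusted p was 0.0875 for Eif3b, 0.1004 for Eif3c and 0.154 for Eif3k.

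Eif3d (-0.50), Eif3h (-0.36) and Eif3i (-0.22) also lay lower without passing, and for Eif3h and Eif3i the groups did not overlap. Of the 14 subunits, 7 pointed the opposite way, without passing. Eif3e, which links eIF3 to eIF4G, differed by 0.64 (adjusted p = 0.0516), with GSK libraries at 10.11, 10.23, 10.20 and 10.36 and DMSO libraries at 9.27, 9.53, 10.07 and 9.47. Of the words of Eif3e, 10.9% are shared with other genes. Eif3a, the largest scaffold subunit, differed by 0.33 (adjusted p = 0.218). Of the pair Eif3j1 and Eif3j2, 38.4% and 94.9% of the words are shared with other genes, so their values are uncertain. The subunits of one complex thus ranged from -0.78 to 0.64 in their day 14 change.

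**Figure D4:**
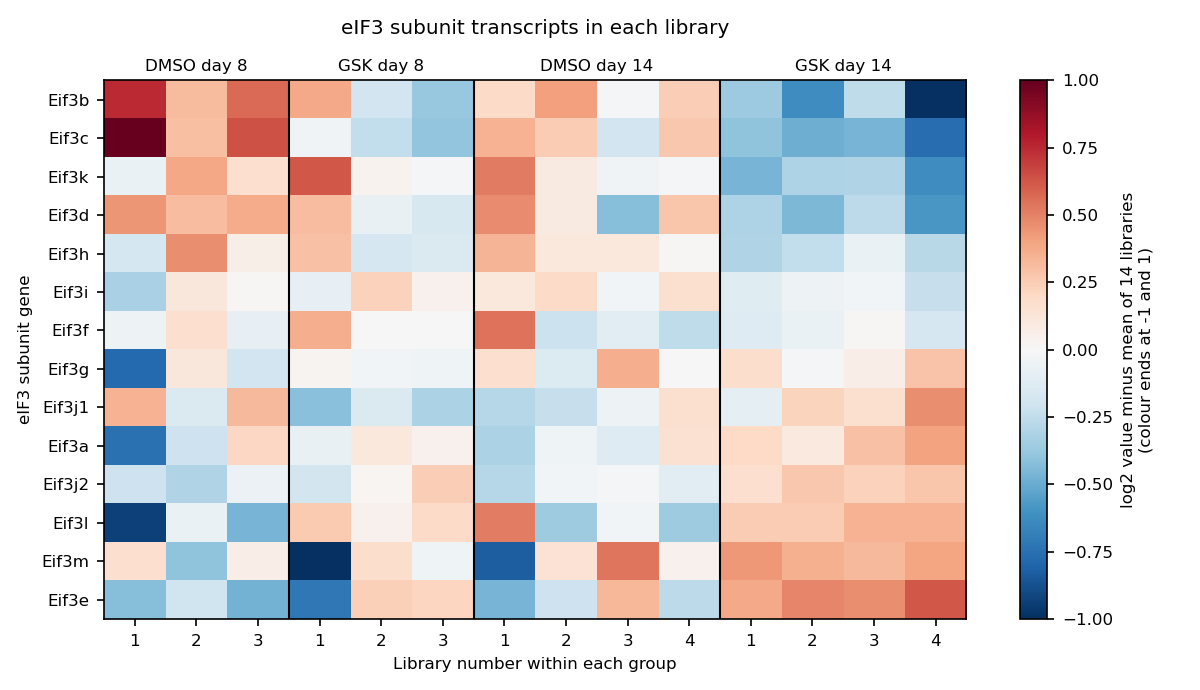
Log2 value minus the gene's mean over the 14 libraries, for the 14 eIF3 subunit genes (rows) in each library (columns), with colours ending at -1 and 1. Eif3b, Eif3c and Eif3k are below their mean in all 4 GSK day 14 libraries, and Eif3e is above its mean in the same libraries.

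Of the remaining initiation factors, 1 of 8 genes of the eIF1, eIF1A, eIF5, eIF5B and eIF6 group passed on day 14. That is 12.5%, beside 10.8% of all genes tested. Eif6 (chr2:155819832-155826925, minus strand) had values of 11.36, 11.16, 10.79 and 10.92 in DMSO and of 10.14, 10.39, 10.35 and 10.06 in GSK tumours. All GSK libraries lay below all DMSO libraries, and Eif6 fell by 0.83 ± 0.16, or 1.77-fold (adjusted p = 0.00807). Its adjusted p stayed under 0.05 in all 28 refits with another setting or with a library left out, the highest being 0.0409. Eif1, which guards the choice of start codon, differed by 0.29 and did not pass, and Eif5a differed by 0.14.

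None of the 10 genes of eIF2, its exchange factor eIF2B and the related Eif2a and Eif2d passed on day 14 (limma). Of all genes tested, 10.8% passed. An unadjusted p under 0.05 was found for 3 of the 10, beside 27.3% of all genes tested. Eif2s1, the alpha subunit, was at 6.73, 7.03, 7.37 and 6.65 in DMSO and at 7.33, 7.34, 7.31 and 7.74 in GSK tumours. DMSO library 3 overlapped with the GSK group, and the difference of 0.49 did not pass (adjusted p = 0.0729). Eif2b5, the catalytic subunit of eIF2B, differed by -0.26 (adjusted p = 0.222), although its libraries did not overlap.

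Other measures moved together with the day 14 groups. The mean of the 4T1 epithelial markers ran from 5.03 to 5.41 in the DMSO and from 4.78 to 4.91 in the GSK day 14 libraries, and the mean of the mitochondrially encoded genes was 9.87 and 10.53. Their part in the results was not tested beyond the refits that follow. The epithelial ranges of the day 14 groups did not overlap, so a refit with that mean cannot separate it from the group. With the epithelial mean as a covariate 3 of the 10 calls remained, those of Eif4g3, Eif4g1 and Eif6. The other 7 kept their direction, with values of 0.62 for Eef1a1, 0.66 for Eif4a1, 0.40 for Eef1b2, -0.67 for Eif3b, -0.66 for Eif3c, -0.66 for Eif4e3 and -0.47 for Eif3k. Among the libraries with AY036118 the higher (2 DMSO and 4 GSK on day 14), 6 of the 10 remained: Eif4g3 (0.75), Eef1a1 (0.77), Eif4g1 (0.78), Eif4a1 (0.97), Eif6 (-0.84) and Eif3k (-0.66). There the values of the others were 0.31 for Eef1b2, -0.66 for Eif3b, -0.61 for Eif3c and -0.44 for Eif4e3, in the same direction as over all libraries. With this split as a term in the fit 3 remained, Eif4g1, Eif4a1 and Eif6, while Eif4g3 was at 0.72 (adjusted p = 0.0536), Eef1a1 at 0.71, Eef1b2 at 0.35, Eif3k at -0.57, Eif3b at -0.59, Eif3c at -0.53 and Eif4e3 at -0.51.

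On day 8, 0 of the 55 factors passed in the limma fit, beside 0.194% of all genes tested, and 10 factors had an unadjusted p under 0.05, beside 16.3% of all genes. The groups did not overlap for 9 of the 55 (16.4%), beside 16.2% of all genes, and the median change was 0.049. Eif3c had the smallest p, with values of 13.73, 12.86 and 13.20 in DMSO and 12.52, 12.31 and 12.17 in GSK tumours. The difference of -0.93 ± 0.21 came with an adjusted p of 0.0592. Eif4e3 followed with -0.79 (adjusted p = 0.122) and Eif5b, the GTPase that joins the ribosomal subunits, with -0.47 (adjusted p = 0.165).

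Factors that passed on day 14 had unlike values on day 8. The day 8 differences were 0.51 for Eif4g1, -0.61 for Eif3b and -0.46 for Eif6, but -0.021 for Eef1a1, -0.020 for Eef1b2, 0.032 for Eif4a1, 0.20 for Eif4g3 and 0.049 for Eif3k. Eif4e differed by 0.34, Eef2 by 0.27, Eif3a by 0.27 and Eif1 by 0.15. Eif2s1 differed by -0.11, Eif2b5 by -0.14, Eef2k by 0.083 and Eif5a by 0.015. In the test of the day 14 difference minus the day 8 difference, 0 of the 55 passed (limma; 8 at an unadjusted p under 0.05), beside 0.00841% of all genes tested (8.3% at an unadjusted p under 0.05). The 3 with the smallest p were Eif3j1 (0.75, adjusted p = 0.511), Eif2b1 (0.54, adjusted p = 0.548) and Eef1a1 (0.84, adjusted p = 0.548).

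Averaged over both days, 3 factors were higher and 7 lower in GSK tumours, which makes 10 of 55 beside 14.5% of all genes tested (6.73% higher and 7.77% lower). An unadjusted p under 0.05 was found for 24 of the 55, beside 30.6% of all genes tested. Eif4g1 rose by 0.63 ± 0.13 (adjusted p = 0.00706) and Eif4g3 by 0.57 (adjusted p = 0.0277). The call of Eif4g3 was lost in 10 of 28 refits. Its change was 0.38 once the fit held a term for the ribosomal RNA split (adjusted p = 0.140). The eIF3 subunit Eif3l rose by 0.51 (adjusted p = 0.0334), and the first DMSO library of day 8 (7.72) was its lowest. Among the libraries with AY036118 the higher, its change was 0.12 (adjusted p = 0.555), and its call was lost in 15 of 28 refits. Eif3c fell by 0.81 (adjusted p = 0.00226), Eif4e3 by 0.75 (adjusted p = 0.00674), Eif3b by 0.69 (adjusted p = 0.00705) and Eif6 by 0.64 (adjusted p = 0.00464).

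The list of lower factors was completed by Eif1ad, named for its eIF1A-like domain, which fell by 0.48 (adjusted p = 0.0209), by Eif3d, an eIF3 subunit that can bind caps, which fell by 0.43 (adjusted p = 0.0390), and by Eif5b, which fell by 0.34 (adjusted p = 0.0397). In the fit that held a term for the ribosomal RNA split, the change was -0.23 for Eif5b (adjusted p = 0.179). For Eif3d it was -0.33 (adjusted p = 0.163), and the call of Eif3d was lost in 15 of 28 refits. Among the libraries with AY036118 the higher, Eif5b was at -0.12 (adjusted p = 0.457), Eif1ad at -0.34 (adjusted p = 0.175) and Eif4e3 at -0.46 (adjusted p = 0.116), and the call of Eif5b was lost in 16 of 28 refits. Eif1ad overlaps Banf1, and Eif5b overlaps Rev1, on the opposite strand. Only Eif4g1, higher, and Eif3c, lower, had groups that did not overlap on either day in the same direction, which is 3.64% of the 55 beside 4.81% of all genes tested.

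Between day 8 and day 14 the factors of DMSO tumours gave 0 calls of 55 in the limma fit (3 at an unadjusted p under 0.05), beside 0.824% of all genes tested (15.4% at an unadjusted p under 0.05). The libraries of both days did not overlap for 3 of the 55 (5.45%), beside 10.1% of all genes tested. The smallest p belonged to Eif2b2 (-0.60, adjusted p = 0.133), Eif4e (0.43, adjusted p = 0.163) and Eif3c (-0.53, adjusted p = 0.204). In GSK tumours 4 of 55 passed (7.27%), beside 7.01% of all genes tested, and 18 had an unadjusted p under 0.05, beside 24.9%. There was no overlap for 21 of the 55 (38.2%), beside 30.3% of all genes tested. Eif4g3 rose by 1.07 ± 0.23 from day 8 (7.05, 7.79 and 8.03) to day 14, or 2.10-fold (adjusted p = 0.0145). Eef1a1 rose by 1.02 ± 0.24 from 12.11, 12.89 and 13.14, or 2.03-fold (adjusted p = 0.0249).

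Library 1 was the lowest of the GSK day 8 libraries for both genes. Eif2s1 rose by 0.74 ± 0.18 from 6.52, 6.64 and 6.92 (adjusted p = 0.0281), and Eif3k fell by 0.64 ± 0.18 from 12.14, 11.55 and 11.50 (adjusted p = 0.0469). Without GSK day 8 library 1, 0 of the 55 passed. The 4T1 epithelial mean lay between 5.64 and 7.01 in the GSK day 8 libraries and between 4.78 and 4.91 in those of day 14. With it as a covariate 0 of the 55 passed. The ranges of both days did not overlap, so that refit cannot separate the day from the epithelial mean. In that refit the changes were 0.29 for Eif4g3, 0.056 for Eef1a1, 0.21 for Eif2s1 and -0.19 for Eif3k. Without GSK day 8 library 1 they were 0.79, 0.72, 0.65 and -0.43. Both time courses share no libraries, and their difference is the same contrast as that between the days above, in which no factor passed.

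Other genes of the pathway were counted for the same comparisons. A list of 38 partners of the factors held, among others, kinases and phosphatases of eIF2, binding proteins of eIF4E, and poly(A)-binding, release and recycling factors. It also held enzymes that modify eIF5A and eEF2, genes of mTOR signalling, reinitiation factors and helicases. Of these 38, 37 passed the minimum, and 2 rose and 0 fell on day 14 (5.41%, beside 10.8% of all genes tested). Pdcd4, an inhibitor of eIF4A, rose by 0.65 (adjusted p = 0.0145), in the same direction as its target Eif4a1. Abce1, which splits ribosomes after termination, rose by 0.76 (adjusted p = 0.0422). On average over both days 3 of the 37 passed (8.11%, beside 14.5% of all genes tested). Eif2ak1, the haem-regulated eIF2 kinase, rose by 0.42 (adjusted p = 0.0181), and Mcts1, a reinitiation factor, and Dph2, an enzyme of the diphthamide modification of eEF2, fell by 0.41 (adjusted p = 0.0325) and 0.46 (adjusted p = 0.0289). From day 8 to day 14 in GSK tumours, Pdcd4 rose by 0.58 (adjusted p = 0.0380).

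Many elongation factor messages and several eIF3 messages begin with a terminal oligopyrimidine tract, which places their translation under mTOR. Of 12 such factors, Eef1a1 and Eef1b2 rose and Eif3k fell on day 14 (25% passed, beside 10.8% of all genes tested), with a median change of 0.21. Of the 83 cytosolic ribosomal protein genes, whose messages share this feature, 5 rose and 18 fell on day 14 (27.7%, beside the same 10.8%), with a median of -0.077. Among the 37 genes that share under 10% of their words with other genes, 5 of the 10 calls of day 14 remained.

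The day 14 change was set beside the GC content of the longest coding transcript. Across the 55 genes Pearson's r was -0.27, and across 11870 genes with a GC value it was -0.17. These are descriptions across genes, which share their libraries and are not independent replicates. Of the factors that rose, Eef1b2 has 46.2% GC, Eef1a1 47.4%, Eif4a1 48.1%, Eif4g3 51.7% and Eif4g1 54.2%. Of those that fell, Eif4e3 has 45.0%, Eif3c 49.6%, Eif3k 53.9%, Eif3b 55.9% and Eif6 57.9%. With each library's trend with GC content removed, 9 factors passed on day 14, and all 9 were among the 10.

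**Figure D5:**
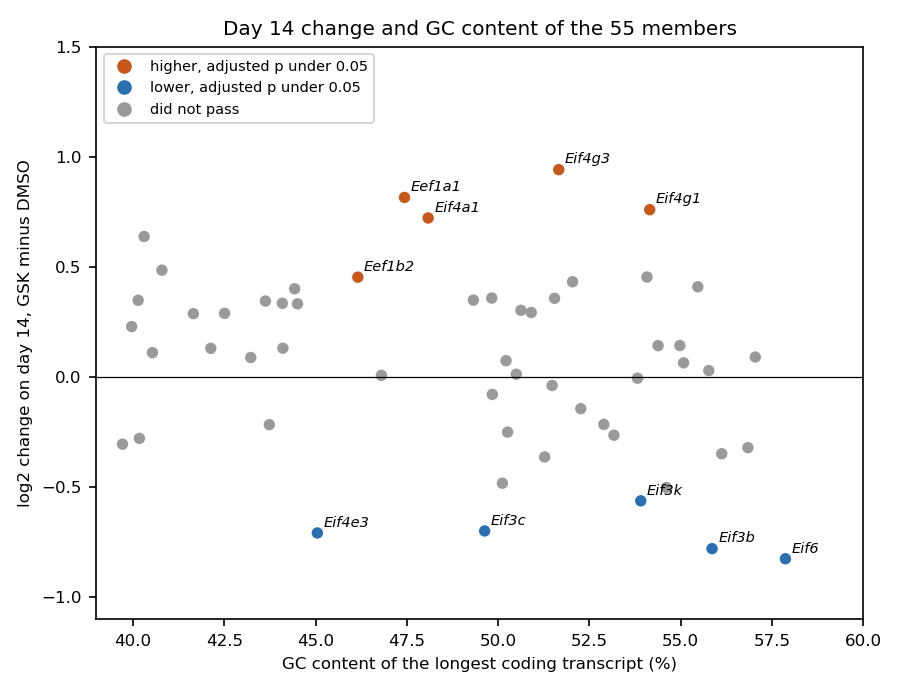
Log2 change on day 14 between GSK and DMSO tumours (vertical axis) against the GC content in percent of the longest coding transcript (horizontal axis) for the 55 factors, with those that passed in colour. Eif6, at 57.9% GC, has the largest fall, and Eif4g1 rose at 54.2%.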

How the data were processed

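Per the labels, total RNA of F4/80+ cells was sequenced in 14 libraries, and the authors deposited 1 table of normalized log2 values, with every column assigned to a library (0 columns without one). Per the submitters' processing notes, Bowtie2, RSEM 1.2.29 and DESeq2 1.12.4 were used, with mm10 and GRCh38 as builds. The transformation that gave the values is not given in the sources used here, so changes of low genes may be understated. Symbols, types and coordinates came from GENCODE M21 (GRCm38, the assembly of mm10), and 24483 identifiers matched while 73 did not.

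Genes with an unlogged value of at least 10 in 3 or more libraries were kept. A limma model (limma 3.58.1, R 4.3.3, eBayes with trend, 4 group means, two-sided) was fitted to all 14 libraries, and p-values were adjusted by Benjamini-Hochberg over the 11886 kept genes, with 0.05 as the threshold. SE is the standard error of that fit. On simulated data with the day 14 design, 91% of changes of 1 and 20% of changes of 0.5 on the log2 scale were recovered. The simulation changed a far smaller share of genes than the 10.8% that passed on day 14. It also drew noise independently for each gene and library. Its shares may therefore not hold for the real libraries. Shared words are 31-base stretches on the same strand of annotated transcripts.

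The members, lists and alternatives were chosen with earlier results of these data known. In each comparison the text names the factors past the threshold (up to 12 each way), or else the 3 with the smallest p. On both days 12 factors are always given. Others named (Eif3d on day 14, Eif3e, Eif3h, Eif3i, Eif4a2, Eef1d, Eef1g, Gm26377, Gm20696 and those named for their level) were chosen after their values were seen. Alternatives were no filter, a minimum of 50, a pseudocount of 10, rescaling, quantile normalization, no trend, library weights, the replicate block, only the groups compared, the ribosomal RNA split, the epithelial covariate, shared words, and leaving out each library. Removal of the GC trend, leaving out both first day 8 libraries and leaving out factors whose exons overlap another gene were added after seeing the data.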

Additional observations from a re-analysis of the deposited data

Results flagged for a closer look

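Among 25 named factors in both day 14 groups, 50 sets of 4 libraries were searched for a library far from the other 3, and 4 were found, where chance alone flags about 1 in 20. DMSO day 14 library 3 was the lowest for Eif1ad (8.88, the next at 9.37), for Eif3c (12.4, the next at 12.8) and for Eif4e3 (9.16, the next at 10.1). That library lay at 10.8 on the first principal component, and the other DMSO day 14 libraries at -18.0 to -8.77. Without it, 13 factors passed on day 14 in place of 10. GSK day 14 library 4 was the highest for Eif2s1 (7.74, the next at 7.34); it lay at 43.1 on the first principal component, and the other GSK day 14 libraries at 28.6 to 29.6.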

How the results depend on the processing

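Only Eif6 on day 14, and Eif4g1, Eif3c, Eif3b and Eif6 in the mean of both days, stayed past the threshold in all 28 refits. Leaving out 1 library gave 1 to 13 calls on day 14 (10 with all), 5 to 17 in the mean (10), 0 to 7 between the days in GSK tumours (4), 0 to 1 on day 8 (0), and 0 in the other comparisons. On day 14 there were 6, 3 and 5 calls when DMSO day 14 library 1, 2 or 4 was left out, and 5, 5 and 1 when it was GSK day 14 library 1, 3 or 4. In the mean there were 17, 5 and 5 without GSK day 8 library 1, 2 or 3, and 6 on leaving out DMSO day 14 library 2 or 4 or GSK day 14 library 1 or 4. Between the days in GSK tumours there were 7 when DMSO day 8 library 1 was left out, 0 and 1 for GSK day 8 library 1 or 2, and 1, 2 and 0 for GSK day 14 library 1, 2 or 4. The cause of these moves was not tested, apart from the fewer libraries. The share of all genes that passed is not given for any refit in this report. The counts thus do not show whether all genes moved alike.

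For day 14, the mean and GSK tumours over time, calls numbered 3, 5 and 1 with no filter, 19, 21 and 16 with library weights (1 on day 8), and 16, 18 and 0 without both first day 8 libraries. A term for the ribosomal RNA split gave 3 on day 14 and 5 in the mean. With the epithelial covariate there were 3 on day 14 and 0 over time, under the limit given above for these refits. Over time in GSK tumours there were also 7 with a minimum of 50, 8 with only the groups compared and 0 with only libraries with AY036118 higher. Counting only factors that share under 10% of their words left 5 on day 14 and 2 over time. Quantile normalization gave 6 higher and 3 lower on day 14, in place of 5 and 5.

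No pairing by replicate number was seen: same-numbered libraries had correlations of their deviations of -0.34 to 0.52 (5 of 19 over 0.1). Different-numbered libraries of different groups had -0.52 to 0.38 (14 of 54 over 0.1). With so few libraries in each group, these correlations cannot exclude a pairing. With the replicate block, 9 factors passed on day 14, 9 in the mean and 1 over time in GSK tumours.

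Reversed signs were found only for differences that had not passed. With 1 library left out, the day 8 difference ranged from -0.012 to 0.43 for Eif1, -0.21 to 0.24 for Eif4a1, -0.029 to 0.081 for Eif5a, -0.23 to 0.28 for Eef1a1 and -0.24 to 0.40 for Eef2k, and the day 14 difference from -0.0050 to 0.22 for Eef2. On day 8 Eif2s1 became 0.067 with the epithelial covariate and 0.037 without both first libraries. Eef1a1 became 0.081 with quantile normalization, 0.27 with library weights, 0.48 with only AY036118-higher libraries, 0.30 with the covariate and 0.49 without both first libraries. Eef2k became -0.084 with the ribosomal RNA term, -0.39 with only AY036118-higher libraries and -0.071 without both first libraries. On day 14, Eef2 became -0.025 with only AY036118-higher libraries. The depth of the libraries is unknown, so what it limits was not tested.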
